A study of Mus musculus with 7 samples.

Results

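The nuclear genes of the mitochondrial respiratory chain were compared between Nestin-positive and Nestin-negative granule neuron precursors of the mouse cerebellum. Members were chosen by their symbol in the array's annotation: every gene starting with Nduf, Uqcr, Sdh (Sdha to Sdhd), Cox4 to Cox8 followed by a letter, or Atp5. The rule used no measured value and found 90 genes on 179 single-gene probe sets, of 34945 single-gene probe sets in all. Of the 90 genes, 82 reached the array median on at least 3 arrays and were tested among 11089 genes.

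The cells came from cerebella of Math1-Cre/Ptc-loxp/Nestin-CFP mice, in which the Cre recombinase driven by the Math1 promoter of the granule neuron lineage removes the Hedgehog receptor gene Ptch1, and a Nestin promoter drives a cyan fluorescent protein. Both fractions carry this genotype, so no Ptch1-intact control enters the comparison. Nestin-positive cells gave 4 arrays (replicates 1, 3, 4 and 5) and Nestin-negative cells gave 3 (replicates 1, 4 and 5), all sorted by fluorescence from uncultured tissue. The sample labels give postnatal day 7 and call the tissue medulloblastoma, while the series text gives day 4. Nothing in the labels says whether replicates came from separate animals, so the p-values measure the spread between these samples, which may be technical.

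The respiratory chain of the inner mitochondrial membrane passes electrons from NADH and succinate to oxygen. Complexes I (NADH dehydrogenase), III (cytochrome bc1) and IV (cytochrome c oxidase) pump protons as they do so, complex II (succinate dehydrogenase) feeds electrons in without pumping, and complex V (ATP synthase) uses the proton gradient to make ATP. Most subunits are encoded in the nucleus and are made at high levels in nearly every cell. Neural progenitors are described as relying more on glycolysis, and neurons more on oxidative phosphorylation.

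Several facts of the whole series touch the results. Nes, whose promoter defined the sort, had signals of 478, 829, 722 and 543 on Nestin-positive arrays, against 179, 174 and 217 on Nestin-negative arrays with its brightest probe set, and the fractions did not overlap. All 15 measured granule neuron precursor markers lay at or above the array median on every array of both fractions. Limma called 83 of 11089 genes (0.748%) at an adjusted p under 0.05, and 1122 (10.1%) when the replicate number entered as a block. With the block, 15 of 22 measured granule neuron differentiation genes fell in Nestin-positive cells (4 without it, 15 with a random block at an estimated correlation), where 6.52% of all genes fell. Of 23 G2 and mitosis genes 18 rose with the block (0 without it, 13 with the random block), where 3.6% of all genes rose. Of the 15 precursor markers, 3 rose and 1 fell with the block (0 passed without it, 2 with the random block). Markers of other cells went both ways. With the block, 9 of 9 measured microglia and macrophage markers fell (2 without it, 9 with the random block), as did 6 of 8 meningeal fibroblast markers and 1 of 10 endothelial markers (0 of either without it). Of 15 astrocyte markers 6 fell and 2 rose, of 6 oligodendrocyte lineage markers 1 fell and 2 rose, and of 5 GABAergic markers 2 fell and 1 rose (0 in each list without the block). With the random block 5 fibroblast, 0 endothelial, 1 astrocyte, 1 oligodendrocyte lineage and 2 GABAergic markers passed. The summed microglia signal was 291 to 1094 on Nestin-positive arrays, against 2077 to 7925 on Nestin-negative arrays. In these bulk samples, fewer cells of a type and less RNA per cell cannot be told apart.

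No respiratory chain gene passed the test between the fractions. Limma called 0 of the 82 measured genes at an adjusted p under 0.05, where it called 0.748% of all genes, and the smallest adjusted p among them was 0.157. At an unadjusted p under 0.05 there was 1 of 82, or 1.22%, against 14.4% of all genes tested and 4.38% of 434 bright genes. Bright genes are the tested genes whose mean log2 signal was at or above the members' median, including the members that reach it. At the adjusted threshold 0 of these 434 were called as well. The fitted log2 changes (Nestin-positive minus Nestin-negative) lay between -0.39 and 0.30, whereas those of all genes lay between -4.94 and 3.25. For 73 of the 82 genes the 95% interval of the change stayed within 1.5-fold in either direction, which held for 51.8% of all genes tested and for 90.8% of the bright genes. The 9 genes whose intervals reached past 1.5-fold were Ndufv3, Ndufa13, Ndufs5, Ndufb6, Ndufaf3, Ndufaf2, Ndufaf6, Uqcrc1 and Cox7c. That of Ndufv3 (-0.65 to -0.13) was not wide but lay wholly below 0. A p above the threshold does not show that the fractions are alike, and the intervals give the sizes that remain possible.

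**Figure D1:**
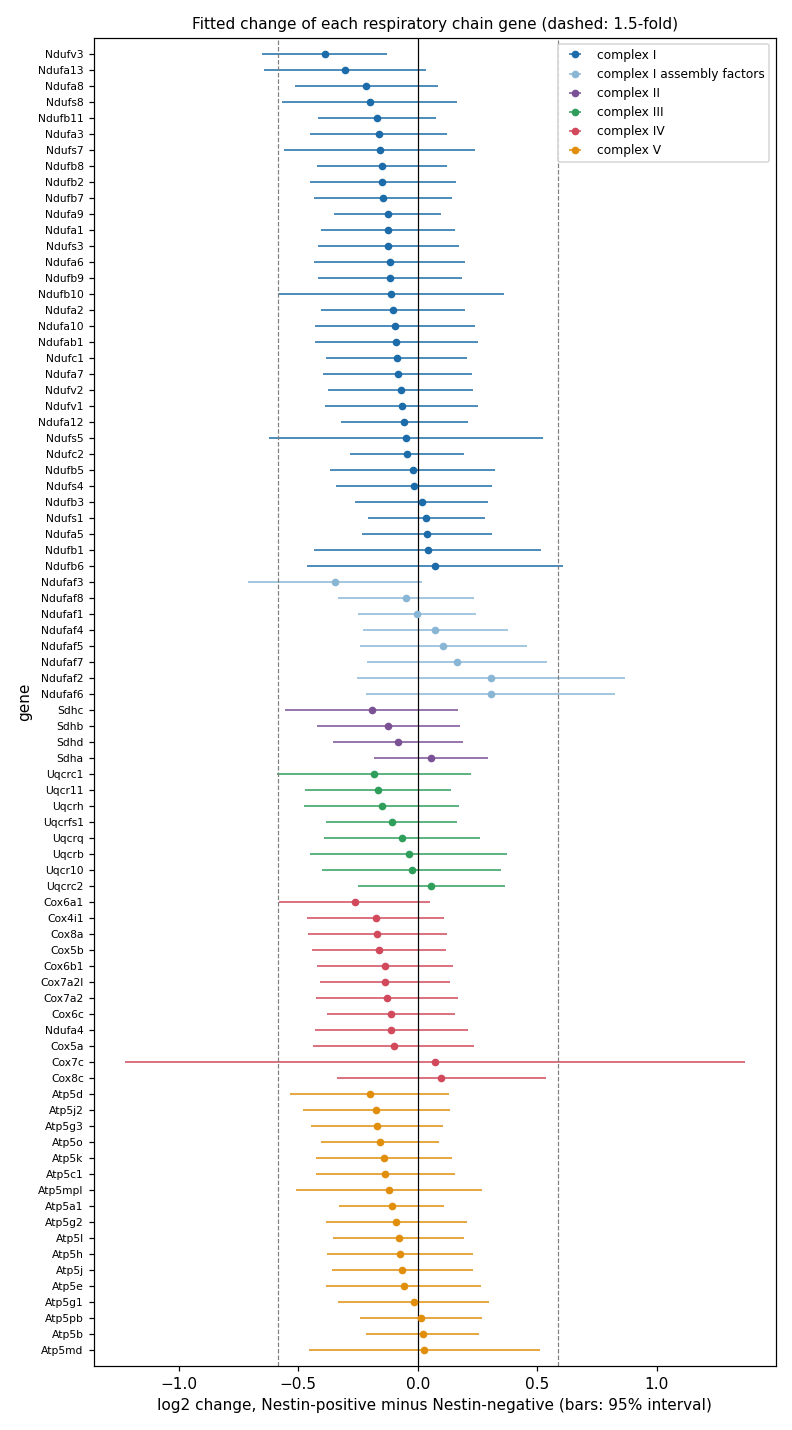
Fitted log2 change of each of the 82 measured respiratory chain genes (points, Nestin-positive minus Nestin-negative) with its 95% interval (bars), coloured by complex; dashed lines mark 1.5-fold. Most points lie slightly left of 0 and nearly all intervals cross it, Ndufv3 being the exception, and Cox7c has the widest interval.

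Within that narrow range, the changes leaned to one side. The median log2 change was -0.10 over the 82 genes and -0.03 over all genes tested, and 65 of the 82 were negative (79.3%, against 54.5% of all genes). A change of this size is a few percent of the signal. The 434 bright genes leaned the same way, with a median change of -0.06 and 68.2% negative. The median was negative under every setting tried, but several arrays each moved it by more than 1.5 times when left out. Leaving out replicate 1 of the Nestin-positive arrays gave -0.02 with 47 genes negative, and leaving out replicate 5 of the Nestin-negative arrays gave -0.03 with 49 negative. The median was -0.17 when Nestin-positive replicate 4 was dropped and -0.18 when Nestin-negative replicate 1 was.

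The pairs of same-numbered samples did not share a direction. In pair 1 the median difference was -0.16, with 65 of 82 genes lower in the Nestin-positive sample, and in pair 5 it was -0.15, with 73 of 82 lower. In pair 4 the median was 0.07 and 18 of 82 were lower, so that most subunits were slightly higher in the Nestin-positive sample. The medians over all genes were -0.03, -0.00 and -0.02 in pairs 1, 4 and 5. Of the 82 genes, 10 were lower in all 3 pairs, or 12.2%, against 23% of all genes tested and 15.4% of the bright genes. These 10 were Ndufv3, Ndufa8, Ndufb11, Ndufb2, Ndufa9, Ndufa2, Ndufc2, Sdhc, Cox5a and Atp5h, named after their values were seen. Ndufaf4 and Ndufaf5, both assembly factors, were the 2 members higher in all 3 pairs, where 19% of all genes and 9.91% of the bright genes were. Ndufaf4 was nearly equal in pair 5, with a log2 difference of 2.3e-04. Ndufc2 was nearly equal in pair 4, with one of -0.0023.

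**Figure D2:**
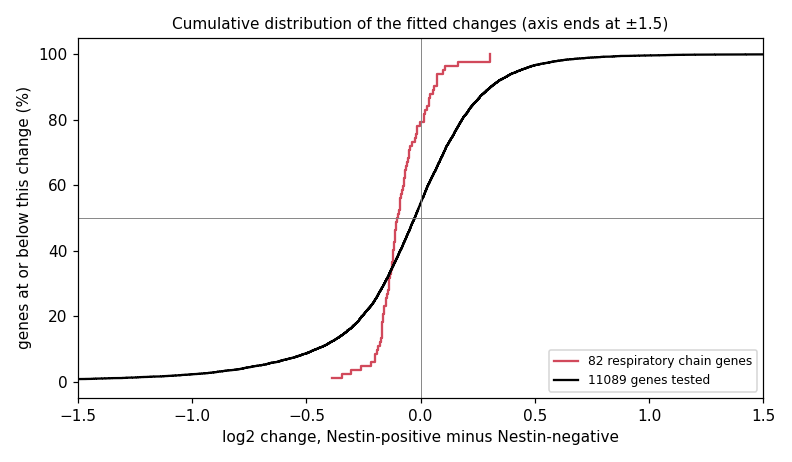
Cumulative share of genes (vertical axis, percent) at or below each fitted log2 change (horizontal axis) for the 82 respiratory chain genes and the 11089 genes tested. The respiratory chain curve is steeper than that of all genes and crosses 50% at -0.10, against -0.03 for all genes.

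The arrays differed from each other more than the fractions did. Relative to the mean of all 7 arrays, the median log2 level of the 82 genes was -0.27, -0.10, 0.17 and 0.02 on Nestin-positive replicates 1, 3, 4 and 5, against -0.08, 0.08 and 0.19 on Nestin-negative replicates 1, 4 and 5. The 2 fractions overlapped, with Nestin-positive replicate 4 among the highest arrays. For 58 of the 82 genes (70.7%, against 27.1% of all genes tested and 58.8% of the bright genes) replicate 1 was the lowest array of both fractions. Complexes I, III, IV and V moved together from array to array, and the bright genes moved the same way over a smaller range. The bright genes' median was -0.21, -0.06, 0.13 and 0.04 on the Nestin-positive arrays, against -0.05, 0.06 and 0.08 on the Nestin-negative arrays. On Nestin-positive replicate 1 the medians of complexes I, III, IV and V were -0.28, -0.29, -0.30 and -0.26, and on Nestin-negative replicate 5 those of the complexes were 0.20, 0.23, 0.18 and 0.18.

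**Figure D3:**
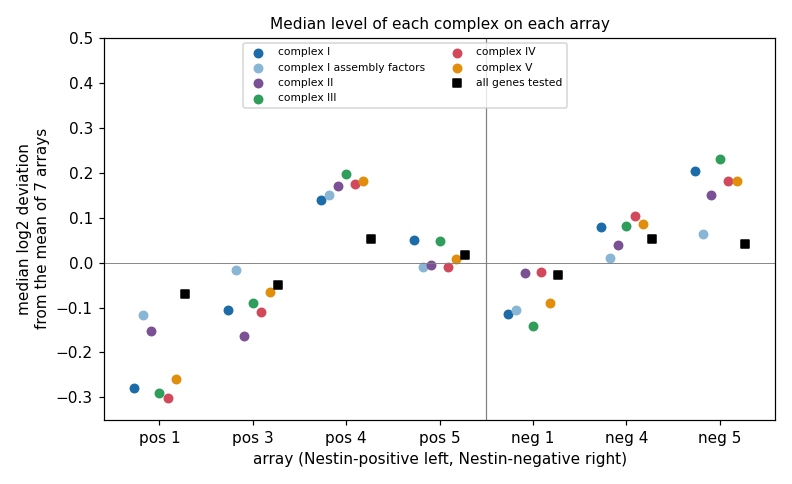
Median log2 deviation from the mean of the 7 arrays (vertical axis) for each complex and for all genes tested, on each array (Nestin-positive left, Nestin-negative right). The complexes range from -0.30 to 0.23 and all genes tested from -0.07 to 0.05, and the assembly factors and complex II lie apart from the other complexes on several arrays.

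Complex I, which takes electrons from NADH, had 33 measured subunit genes with a median log2 change of -0.10, and 28 of them were negative. The measured core subunits, conserved from bacteria (Ndufs1, Ndufs3, Ndufs7, Ndufs8, Ndufv1 and Ndufv2) had a median of -0.10, and so did the 27 accessory subunits. Of the core, Ndufs8 had a change of -0.20 and Ndufs1, the large iron-sulphur subunit, one of 0.04. Ndufs1 went against the array pattern of its partners: its signal was 2655, 2715, 2365 and 2330 on Nestin-positive arrays, against 2599, 2376 and 2379 on Nestin-negative arrays, with replicate 1 the highest of the Nestin-negative arrays.

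Ndufv3, an accessory subunit attached to the NADH-oxidising head of complex I, had the largest difference of the 82 genes. Its signal was 2760, 3295, 3567 and 3102 in Nestin-positive cells (3181 ± 339, SD, n = 4), against 4431, 4003 and 4032 in Nestin-negative cells (4155 ± 239, SD, n = 3). The fractions did not overlap, as was the case for 2 of the 82 genes (2.44%), 4.84% of the bright genes and 15% of all genes. The log2 change was -0.39 ± 0.12 (SE), or 0.763-fold, with a limma adjusted p of 0.157. By exact permutation of the fraction labels (35 arrangements, two-sided) p was 0.0571, and the design allows no p below 0.0286. This permutation was run only on the 2 genes without overlap, picked on these same values, so it is no separate support. It also ignores the replicate numbers.

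With the replicate number as a block, Ndufv3 was the single member called, as a fall of -0.41 ± 0.11 (SE, limma, adjusted p = 0.0183). In that fit 1 of the 82 was called lower, against 6.52% of all genes and 5 of the 434 bright genes. The random block, which keeps all 7 arrays, also called Ndufv3 (adjusted p = 0.0324) and no other member, against 7.7% of all genes. The pair differences were -0.68, -0.17 and -0.38 for pairs 1, 4 and 5. The blocked adjusted p was 0.256 without pair 1, 2.7e-04 without pair 4 and 0.0603 without pair 5, so the call was lost without pair 1 or pair 5 and kept without pair 4. With each probe set fitted on its own it was 0.0549. Ndufv3 has 1 probe set on the array.

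The other accessory subunits with the smallest p-values were Ndufa13 and Ndufa8. Ndufa13, also known as GRIM-19, had signals of 6744, 7318, 9937 and 9194 in Nestin-positive cells, against 9306, 9728 and 11456 in Nestin-negative cells (log2 change -0.30 ± 0.15 SE, adjusted p = 0.405). The arrays overlapped, since Nestin-positive replicate 4 exceeded 2 of the Nestin-negative arrays. The pair differences were -0.465, 0.031 and -0.317 for pairs 1, 4 and 5. Without pair 4, the only pair of opposite sign, the blocked change was necessarily larger and passed (-0.39, adjusted p = 0.0106). That fit rests on pairs 1 and 5 alone and is no separate support. Ndufa8, a subunit held in the intermembrane space, had 3066, 2771, 3694 and 3734 in Nestin-positive cells, against 3487, 3949 and 4055 in Nestin-negative cells (-0.22 ± 0.13, adjusted p = 0.515). Ndufa9, which lies at the junction of the arms of the complex, was the other gene with no overlap between the fractions. It had 4359, 4201, 4778 and 4827, against 4972, 4846 and 5024 in Nestin-negative cells (-0.13 ± 0.10, adjusted p = 0.629). The exact two-sided permutation p was 0.114, with the same limits as for Ndufv3.

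**Figure D4:**
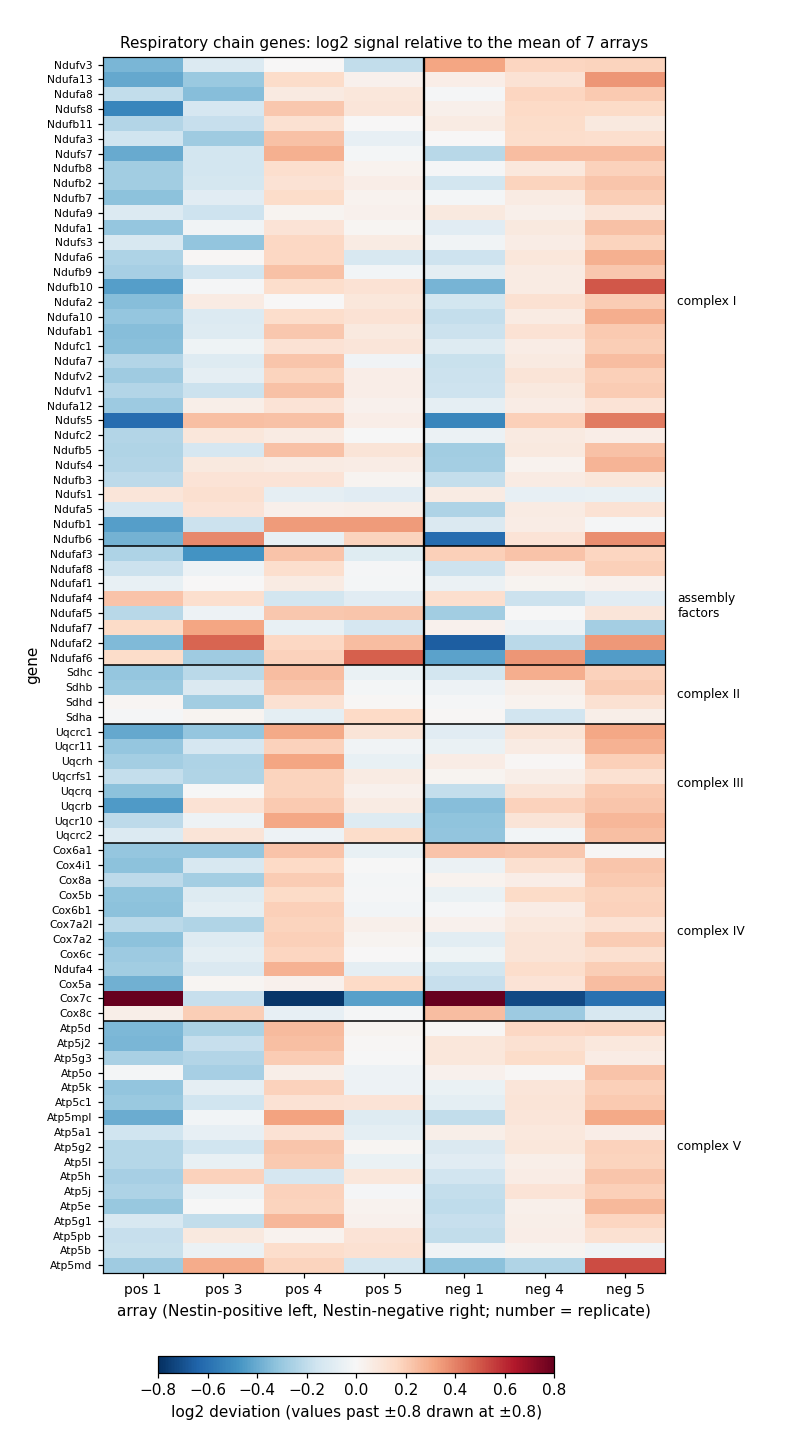
Log2 signal of the 82 measured genes relative to each gene's mean over the 7 arrays (colour), with genes in rows by complex and arrays in columns, Nestin-positive left of the line. The column of Nestin-positive replicate 1 is mostly blue and that of Nestin-negative replicate 5 mostly red, and Cox7c is the gene with the darkest cells, high in replicate 1 of both fractions.

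Some complex I genes varied widely between arrays whatever the fraction. Ndufs5, an accessory subunit on the intermembrane side, had 2660, 4801, 4774 and 4208 in Nestin-positive cells, against 2828, 4629 and 5429 in Nestin-negative cells. Ndufb6, a subunit of the membrane arm, had 4909, 8301, 6103 and 7210 in Nestin-positive cells, against 4180, 6879 and 8252 in Nestin-negative cells. In both genes replicate 1 was the lowest array of each fraction, and the log2 changes between fractions were -0.05 ± 0.26 and 0.07 ± 0.24 (SE).

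The 8 measured complex I assembly factors, which help build the complex and are absent from the finished enzyme, did not share the lean of the subunits. Their median log2 change was 0.09, with 3 of 8 negative, and the median stayed positive (0.03 to 0.12) in every alternative. In pair 5 their median difference was -0.02, with 4 of 8 lower. Their signals were below those of most subunits, so the contrast is not made at a matched signal level. The brightest, Ndufaf8, had means of 1934 in Nestin-positive and 2006 in Nestin-negative cells. None of the 8 passed the test. Ndufaf3, which acts early in assembly, had 839, 715, 1166 and 931 in Nestin-positive cells, against 1138, 1164 and 1123 in Nestin-negative cells (-0.35 ± 0.16 SE, adjusted p = 0.375). The Nestin-negative arrays were tightly grouped, and Nestin-positive replicate 4 lay just above them.

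Ndufaf2 had 775, 1367, 1110 and 1173 in Nestin-positive cells, against 628, 852 and 1261 in Nestin-negative cells (0.30 ± 0.25 SE, adjusted p = 0.642). Ndufaf6, which also acts in assembly, had 866, 644, 891 and 1089 in Nestin-positive cells, against 582, 1000 and 575 in Nestin-negative cells (0.30 ± 0.23, adjusted p = 0.615). Nestin-negative replicate 4 stood apart for Ndufaf6. With the block its change was 0.44 ± 0.15 (adjusted p = 0.0729), and the pair differences were 0.573, -0.166 and 0.921 for pairs 1, 4 and 5. Without pair 4, the only pair of opposite sign, the blocked change was necessarily larger (0.75, adjusted p = 4.0e-05). That fit rests on pairs 1 and 5 alone and is no separate support. Ndufaf1 was the steadiest of all members, with 778, 813, 849 and 803 in Nestin-positive cells, against 786, 822 and 829 in Nestin-negative cells.

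Complex II, the enzyme shared with the tricarboxylic acid cycle, had all 4 subunits measured and a median log2 change of -0.10. The membrane anchor gene Sdhc had 1673, 1789, 2461 and 1995 in Nestin-positive cells, against 1873, 2540 and 2354 in Nestin-negative cells (-0.19 ± 0.16 SE, adjusted p = 0.652). The iron-sulphur subunit gene Sdhb had a change of -0.12 ± 0.13 (adjusted p = 0.732), the second anchor gene Sdhd one of -0.08 ± 0.12 (adjusted p = 0.808) and the flavoprotein gene Sdha one of 0.06 ± 0.11. The arrays of the fractions overlapped for all 4, and every interval lay within 1.5-fold.

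Complex III, which passes electrons from ubiquinol to cytochrome c, had 8 measured subunits with a median of -0.09, 7 of them negative. The core protein gene Uqcrc1 had 3546, 3803, 5801 and 5055 in Nestin-positive cells, against 4420, 5049 and 5834 in Nestin-negative cells (-0.18 ± 0.18 SE, adjusted p = 0.703). Uqcr11 had a change of -0.17 ± 0.14 (adjusted p = 0.637), and the hinge protein gene Uqcrh one of -0.15 ± 0.15 (adjusted p = 0.693). All 8 were lower in the Nestin-positive sample of pair 5, and 1 of 8 was in pair 4. Cyc1, the cytochrome c1 subunit of the same complex, which the symbol rule does not take in, had a change of -0.13 ± 0.13 (adjusted p = 0.702).

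Complex IV, where oxygen is reduced, had 12 measured subunit genes with a median of -0.13, and 10 were negative. Ndufa4 is counted here, since its product is a subunit of cytochrome c oxidase despite its symbol. Cox6a1 had the smallest p-value of the complex: its signal was 18234, 18288, 26525 and 21685 in Nestin-positive cells, against 26479, 26235 and 22819 in Nestin-negative cells (-0.26 ± 0.14 SE, adjusted p = 0.451). Nestin-positive replicate 4 was as high as any Nestin-negative array. A second Cox6a1 probe set gave a change of -0.09. Cox4i1, the regulatory subunit that binds ATP, had 12391, 14226, 17342 and 15483, against 15057, 17010 and 18092 in Nestin-negative cells (-0.18 ± 0.13, adjusted p = 0.592). Cox6b1, Cox7a2, Cox8a and Ndufa4 had changes of -0.14, -0.13, -0.17 and -0.11, and Cox7a2l, which helps join complexes into supercomplexes, one of -0.14 (adjusted p-values 0.618 to 0.780).

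Several complex IV subunits come as paralogs with different tissue ranges, and in both fractions the widely expressed member was the one well above the array medians of 64.4 to 94.5. Cox4i2, the paralog of lung and vascular cells, had 39.2, 20.3, 1.63 and 35.2 in Nestin-positive cells, against 59.3, 14.0 and 29.4 in Nestin-negative cells, all below the array median. Ndufa4l2, the paralog of Ndufa4, had 18.3, 15.0, 24.3 and 11.4, against 20.4, 7.86 and 7.44 in Nestin-negative cells, again all below it. The muscle paralogs Cox6a2, Cox7a1 and Cox8b and the testis-expressed Cox7b2 stayed under that level throughout. Cox6b2, another paralog of testis, reached it on 2 of the 7 arrays. Ndufb4, a complex I subunit represented by 1 single-gene probe set, was the remaining gene left untested, with 60.5, 51.3, 55.2 and 38.2 in Nestin-positive cells, against 40.1, 50 and 34.4 in Nestin-negative cells.

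Cox8c, described mainly in testis, was the exception, with 188, 209, 174 and 181 in Nestin-positive cells, against 216, 149 and 167 in Nestin-negative cells. Those values are above the array median on all 7 arrays for this probe set, while a second one passed it on 1. Its change was 0.10 ± 0.20 (SE, adjusted p = 0.861). Cox4i2 and Ndufa4l2 are known as genes of brain pericytes, and 10 of the 11 measured pericyte and smooth muscle markers fell with the block, where 6.52% of all genes fell. Without the block 0 of the 11 passed, and with the random block 6. The summed signal of the 11 markers was 728 to 2329 on Nestin-positive arrays, against 1542 to 10417 on Nestin-negative arrays. Signals below the array median have no reliable order, so no fold is given for either paralog.

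**Figure D5:**
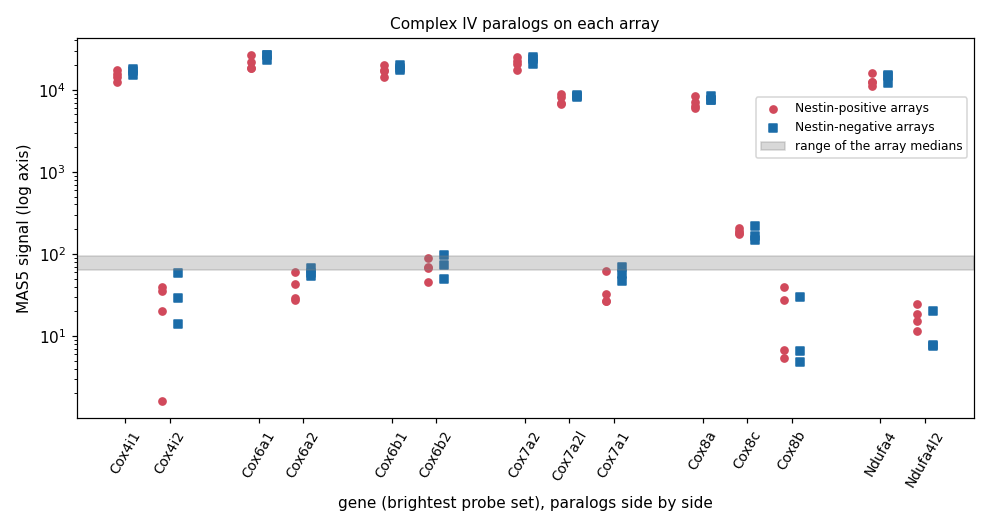
MAS5 signal (log axis) of complex IV paralogs on each array, Nestin-positive circles left of Nestin-negative squares, with the range of the array medians (64.4 to 94.5) as a grey band. Cox4i1, Cox6a1, Cox6b1, Cox7a2, Cox7a2l, Cox8a and Ndufa4 lie far above the band on all arrays, Cox8c above it, Cox6b2 around it, and the other paralogs at or below its level.

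Cox7c, a small subunit of complex IV, had the widest spread between arrays of the 82 genes. It had 1973, 606, 402 and 511 in Nestin-positive cells, against 1581, 417 and 456 in Nestin-negative cells, so that replicate 1 was the highest array in both fractions. Relative to the mean of the other arrays of its fraction, replicate 1 was 1.98 higher on the log2 scale in Nestin-positive cells and 1.86 higher in Nestin-negative cells. The second probe set did the same, with 687, 213, 141 and 169, against 531, 140 and 133 in Nestin-negative cells. Both read far below widely expressed subunits such as Cox8a, which had 6016 to 8408 over the arrays. Whether these probe sets report the main Cox7c transcript was not tested. The change between fractions was 0.07 ± 0.58 (SE, adjusted p = 0.973), and the interval, -1.22 to 1.37, was the widest of the 82.

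Complex V, the ATP synthase, had 17 measured genes with a median of -0.09, of which 14 were negative, and all 17 intervals lay within 1.5-fold. The 5 genes of the catalytic head and central stalk (Atp5a1, Atp5b, Atp5c1, Atp5d and Atp5e) had a median of -0.11. The other 12, of the membrane part and the peripheral stalk, had one of -0.09. Atp5b, the catalytic beta subunit, had 10676, 11709, 13306 and 13122 in Nestin-positive cells, against 11851, 12259 and 11843 in Nestin-negative cells (0.02 ± 0.11 SE, adjusted p = 0.959). Its Nestin-positive arrays fell on both sides of the Nestin-negative ones. The 3 genes with the smallest p-values were Atp5o, whose product joins the head to the stalk (-0.16 ± 0.11, adjusted p = 0.572), Atp5g3 (-0.17 ± 0.12, 0.589) and Atp5d (-0.20 ± 0.15, 0.602).

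Atp5g1, Atp5g2 and Atp5g3 all encode the c subunit of the rotor ring, with the same mature protein and different import signals. Atp5g3 had 14483, 14768, 19918 and 17307 in Nestin-positive cells, against 18437, 19212 and 18040 in Nestin-negative cells. Atp5g2 had 7619, 7998, 10410 and 9047, against 8244, 9527 and 10145 in Nestin-negative cells. Atp5g1 had 3578, 3416, 4710 and 4003, against 3446, 4042 and 4404 in Nestin-negative cells. For each of the 3 the highest Nestin-positive array was replicate 4 and the fractions overlapped, with changes of -0.17, -0.09 and -0.02. The sign of Atp5g1 turned with the replicate block (0.05).

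Where a gene had more than 1 kept probe set, these could disagree. Of 45 such genes, 13 had probe sets of both signs and 1 had changes spanning over 0.5, and over all 153 kept probe sets the median was -0.08 with 119 negative. Limma called 0 of the 153, with the block as well, where it called 0% of all single-gene probe sets without the block and 4.94% with it (at an unadjusted p under 0.05 there were 2 of the 153, against 11.1% of all single-gene probe sets). Ndufab1, the mitochondrial acyl carrier protein that is also a complex I subunit, was the widest case. Its brightest probe set had a change of -0.09 (adjusted p = 0.897), a dimmer one -0.51 (0.354), and the other 2 kept ones, both near the array median, 0.70 (0.607) and 0.20 (0.858).

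Promoter windows of the members were searched for 2 motifs. Nuclear respiratory chain genes are textbook targets of NRF1, which binds a GC-rich palindrome, and of GABP, an ETS factor. RefSeq windows of 300 bases on GRCm38.p6, from 250 before to 50 after the transcription start, were found for 74 of the 90 genes. The NRF1 core (GCGC, any base, then TGCGC), searched on both strands, lay in 17 of the 74 (23.0%, against 5.19% of 27025 genes with a window), and the ETS core CCGGAAG in 19 (25.7%, against 9.93%). In 0 member windows did matches of the motifs overlap each other, 4 genes held both and 42 neither. The median GC content of the members' windows was 59.0%, against 52.7% of all windows, with a median of 20 CpG dinucleotides against 7. Measured members with the NRF1 core had a median log2 change of -0.10 (16 genes), as did those without it (-0.10, 53 genes). The medians with and without the ETS core were -0.12 (19 genes) and -0.10 (50 genes). A match to these letters is a description of the window and not evidence of binding.

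The windows of the gene with the smallest p-value in each group, among genes with 1 window, show how these promoters differ in the matches they hold. Matches on either strand are in capitals, and each sequence runs 5′ to 3′ along the gene's strand.
Ndufv3 (chr17:31519865-31520164, plus strand): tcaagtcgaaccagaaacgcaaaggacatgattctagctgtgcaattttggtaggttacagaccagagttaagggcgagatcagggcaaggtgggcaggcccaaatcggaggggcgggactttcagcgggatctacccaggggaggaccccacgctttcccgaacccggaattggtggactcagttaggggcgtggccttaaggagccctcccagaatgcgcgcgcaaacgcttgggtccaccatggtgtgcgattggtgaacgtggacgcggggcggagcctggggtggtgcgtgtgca
Ndufaf3 (chr9:108567387-108567686, minus strand): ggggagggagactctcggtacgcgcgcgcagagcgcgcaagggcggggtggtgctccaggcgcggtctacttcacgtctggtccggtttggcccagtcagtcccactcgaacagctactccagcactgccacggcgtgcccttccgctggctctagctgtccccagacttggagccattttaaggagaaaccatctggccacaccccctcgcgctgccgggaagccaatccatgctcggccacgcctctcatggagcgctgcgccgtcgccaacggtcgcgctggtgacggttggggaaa
Sdhb (chr4:140961021-140961320, plus strand): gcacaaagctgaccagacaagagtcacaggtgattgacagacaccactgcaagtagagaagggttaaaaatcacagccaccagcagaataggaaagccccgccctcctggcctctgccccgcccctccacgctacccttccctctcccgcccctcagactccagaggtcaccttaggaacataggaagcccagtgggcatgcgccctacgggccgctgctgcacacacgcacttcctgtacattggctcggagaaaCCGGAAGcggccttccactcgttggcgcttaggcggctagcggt
Uqcr11 (chr10:80406772-80407071, minus strand): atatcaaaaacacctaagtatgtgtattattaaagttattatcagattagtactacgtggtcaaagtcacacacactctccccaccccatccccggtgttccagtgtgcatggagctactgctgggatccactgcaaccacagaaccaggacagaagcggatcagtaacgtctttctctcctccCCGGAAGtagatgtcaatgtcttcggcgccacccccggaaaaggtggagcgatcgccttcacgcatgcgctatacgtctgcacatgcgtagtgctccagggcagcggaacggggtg
Cox6a1 (chr5:115348909-115349208, minus strand): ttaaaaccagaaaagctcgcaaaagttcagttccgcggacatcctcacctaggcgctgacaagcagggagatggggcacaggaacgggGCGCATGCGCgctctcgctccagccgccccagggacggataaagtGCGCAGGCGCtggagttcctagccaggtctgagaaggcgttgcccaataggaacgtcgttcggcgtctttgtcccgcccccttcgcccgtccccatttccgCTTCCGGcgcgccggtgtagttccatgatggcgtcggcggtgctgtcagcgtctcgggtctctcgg
Atp5o (chr16:91931581-91931880, minus strand): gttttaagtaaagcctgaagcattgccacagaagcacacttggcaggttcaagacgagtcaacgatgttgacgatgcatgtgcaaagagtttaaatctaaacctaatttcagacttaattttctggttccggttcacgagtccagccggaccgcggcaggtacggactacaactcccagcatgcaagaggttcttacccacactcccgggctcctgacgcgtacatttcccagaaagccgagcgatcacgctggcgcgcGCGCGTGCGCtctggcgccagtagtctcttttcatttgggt
Cox6a1 holds 2 NRF1 cores and 1 ETS core, Atp5o 1 NRF1 core, and Sdhb and Uqcr11 1 ETS core each. Ndufv3, the member called with the block, and Ndufaf3 hold neither.

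None of the 15 measured electron carrier and ubiquinone synthesis genes, 35 further assembly factors, 21 biogenesis regulators, 18 tricarboxylic acid cycle enzymes, 15 carriers and pores and 13 antioxidant and stress genes passed with or without the block. Their median log2 changes were 0.01, 0.01, 0.02, -0.07, -0.09 and -0.00, against -0.03 over all genes tested. At an unadjusted p under 0.05 without the block, where 14.4% of all genes stood, there were 0, 1, 1, 0, 1 and 0 of them. These were Sco2, a copper chaperone of complex IV (-0.38 ± 0.16 SE, adjusted p = 0.323), the DNA-binding GABP subunit gene Gabpa (0.41 ± 0.17, 0.303) and the aspartate and glutamate carrier gene Slc25a12 (-0.39 ± 0.13, 0.199). Cytochrome c (Cycs) had a change of 0.01 ± 0.19, the mitochondrial transcription factor gene Tfam one of 0.18 ± 0.13, and Nrf1 one of -0.10 ± 0.16.

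Of 12 measured hypoxia response genes, 2 fell with the block and 0 without it (2 of 12, or 16.7%, at an unadjusted p under 0.05, against 14.4% of all genes). With the block 6.52% of all genes fell. The mitophagy receptor gene Bnip3 fell by 0.40 ± 0.11 (SE, limma, adjusted p = 0.0213 with the block and 0.140 without), and Epas1, a hypoxia-inducible factor gene known in vascular cells, by 0.89 ± 0.16 (adjusted p = 8.4e-04 with the block and 0.584 without). With the random block at an estimated correlation, the adjusted p was 0.253 for Epas1, which lost its call, and 0.0239 for Bnip3. Of the measured endothelial markers, 9 of 10 had negative changes and 1 fell with the block, with a median of -0.56 and a summed signal of 535 to 2472 on Nestin-positive arrays, against 815 to 2657 on Nestin-negative arrays. Epas1 had 78.8, 106, 642 and 420 in Nestin-positive cells, against 126, 971 and 1106 in Nestin-negative cells. Its value on Nestin-positive replicate 1 was below that array's median of 93.7. Of the 11 measured pericyte and smooth muscle markers 10 fell with the block, while 0 passed without it and 6 with the random block. The filter could keep an endothelial or pericyte marker through the Nestin-negative arrays alone. The part of endothelial cells or pericytes in the Epas1 result was not tested.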

How the data were processed

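RNA of sorted cells was measured on Affymetrix Mouse Genome 430 2.0 arrays (1 colour). The submitters' processing notes name MAS5, with no version, and the deposited values are its signal, a linear intensity. In the files every array had the same mean signal (500.0) without the lowest and highest 2%. MAS5 subtracts mismatch signal, which makes dim values noisy. The number of arrays limits precision.

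Probe sets were named from the platform annotation, other genes' symbols being updated by Entrez ID through RefSeq (GRCm38.p6). Of 45101 probe sets, 64 were controls, 34945 had 1 gene (34741 matched by Entrez ID), 932 several and 9160 none. The 10 probe sets that carry a member symbol among several were left out, as were the 8 genes found on these alone. Log2 values had no pseudocount. A probe set was kept if at or above the array median on at least 3 arrays, and the brightest kept probe set stood for its gene.

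Limma 3.58.1 (R 4.3.3, eBayes with intensity trend, two-sided) was fitted over 11089 genes on all 7 arrays, with Benjamini-Hochberg adjustment, and tested on simulated data. The simulated arrays had independent noise and no shared replicate effect, so they cannot check the blocked fits on paired samples. Same-numbered samples deviated together from their group means (r = 0.70, 0.39 and 0.47 across genes for replicates 1, 4 and 5), so the numbers were taken to pair them. This comes from the data, not the labels. A fit with the number as a block (3 pairs, Nestin-positive replicate 3 dropped) is given where it changes a call. The random block used all 7 arrays. Members, gene lists and tests were chosen with earlier results of these data known. The core group of complex I and the head and central stalk group of complex V were set after values were seen. Named genes are members called in either fit, the 3 smallest p-values of each group and the paralog groups; others were picked after their values were seen. Alternatives were scaling, dim-value filters, probe set choice, variance trend, blocks and leaving out arrays.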

Additional observations from a re-analysis of the deposited data

Results flagged for a closer look

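The lowest Nestin-positive value of Ndufs4, an accessory subunit of complex I, stood far from the other 3 arrays of its fraction, by Dixon's criterion for 4 values. Replicate 1 had a signal of 3196, while replicates 3, 4 and 5 had 3977, 3945 and 3931. On the log2 scale, on which all genes were examined, the gap made up 0.947 of the range. In Nestin-negative cells replicate 1 was also the lowest, with 3123, against 3840 and 4538 on replicates 4 and 5. This was 1 of 82 genes examined, where chance flags about 1 in 20.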

How the results depend on the processing

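No member passed under quantile normalization, median centring, either filter, raised dim values, averaged probe sets or a fit without the trend, nor with any single array left out. With the replicate block 1 passed, and likewise with the random block (Ndufv3 in both, adjusted p = 0.0183 and 0.0324); with single arrays or pairs left out the count was 0 to 3, and the 3 came with the block without pair 4. The block changed no other member's call. The same blocks called 2 and 1 hypoxia genes (0 to 2 with arrays or pairs left out), carriers and pores 0 to 2, and biogenesis regulators 0 to 1. Over all genes 83 passed without a block, 1122 with it, 854 with the random block, 67 with median centring, 22 with quantile normalization, 52 without the filter, 121 with dim values raised, 43 with averaged probe sets, 0 without the trend, 0 to 97 with 1 array left out, 23 without both arrays numbered 1, and 728, 1453 and 909 with the block without pair 1, 4 and 5. The members' median ranged from -0.18 to -0.02 over all settings, and that of complexes I to V stayed negative. With 1 array left out the electron carrier median ranged from -0.094 to 0.028, and the biogenesis median was 0.123 with the block without pair 4. Among single genes, Atp5g1 was 0.046 with the block, 0.015 with the random block, -0.115 to 0.062 with 1 array left out, and 0.041 and 0.137 with the block without pair 1 and pair 5. Sdhd was 8.9e-05 with the block, -0.133 to 8.9e-05 with 1 array left out and 0.056 with the block without pair 5. That last fit also turned Atp5g2 (0.0071) and Ndufa4 (0.0031), the block without pair 1 turned Cox7a2l (0.0079) and Uqcrh (0.028), and the block without pair 4 turned Cox8c (-0.043), which ranged from -0.017 to 0.249 with 1 array left out. The cause of these shifts was not tested. Leaving out both arrays numbered 1, and the block without each pair, were chosen after seeing the data. Signals near the array median bound nothing about low paralogs.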
